A study of Mus musculus with 79 samples.

Results

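Nuclei of VIP interneurons that carried no vector label were compared between mouse visual cortex that had received an adeno-associated virus (AAV) and cortex that had received none. The comparison held 22 of the 79 libraries of the series, chosen by their labels: 10 libraries from cortex injected with the Kir2.1 vector, 9 from cortex injected with its mutant version and 3 from cortex without AAV. The 19 libraries of injected cortex, all sorted as non-transduced, were pooled against the 3 uninjected ones across all genes, and Igkc was given as the marker gene of the comparison.

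All mice carried INTACT wt/ki and VIP Cre wt/ki, so that the nuclei of VIP-Cre cells bear a tag for sorting, and all libraries are labelled as 10 days dark housed. The vectors were AAV-Syn1-Kir2.1-2a-mScarlet-KASH and the same construct with Kir2.1(Mutant) in the place of Kir2.1, in which the neuronal Syn1 promoter drives a potassium channel or its mutant together with a red protein held at the nuclear envelope. The labels' protocol puts the injection at postnatal days 55 to 60 and the move to darkness 3 days later, for 10 to 12 days. It allows harvest in the dark or after 1 h of light, although no label of these libraries names light. The control mice are labelled as having no AAV, and nothing in the labels says that they were injected with anything else, so the vector and the surgery cannot be told apart. Each library was made from 50 to 100 nuclei by oligo-dT priming and 17 cycles of PCR. The labels do not tie libraries to animals, and the p-values below therefore measure the spread between libraries.

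VIP interneurons are inhibitory cells of the cerebral cortex that release the peptide VIP and act largely on other interneurons. An AAV injection breaches the tissue and brings in viral capsid and DNA, both of which the immune system can recognise. Antibody genes such as Igkc, the constant region of the kappa light chain, are transcribed in B cells and the plasma cells that develop from them and serve as markers of those cells. MHC class I proteins, which present peptides together with B2m, and MHC class II proteins, which are assembled with the chain Cd74, are raised by interferons in several cell types.

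Among the antibody genes on which the comparison turns, the Ighg heavy chain genes are closely related, and reads from one can be counted in another. The first 90 bases of 3 heavy chain constant regions and of the kappa constant region are given 5′ to 3′ from the GRCm38 build (GENCODE vM21), with capitals where Ighg2b or Ighg1 differs from Ighg2c. They lie at chr12:113288843-113288932 (Ighg2c, minus strand), chr12:113307844-113307933 (Ighg2b, minus strand), chr12:113330434-113330523 (Ighg1, minus strand) and chr6:70726435-70726524 (Igkc, plus strand).
Ighg2c: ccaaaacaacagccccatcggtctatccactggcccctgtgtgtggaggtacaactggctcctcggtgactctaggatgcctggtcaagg
Ighg2b: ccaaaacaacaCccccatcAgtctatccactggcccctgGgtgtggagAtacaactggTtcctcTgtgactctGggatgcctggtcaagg
Ighg1: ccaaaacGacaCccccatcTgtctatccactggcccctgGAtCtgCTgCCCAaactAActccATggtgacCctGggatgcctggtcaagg
Igkc: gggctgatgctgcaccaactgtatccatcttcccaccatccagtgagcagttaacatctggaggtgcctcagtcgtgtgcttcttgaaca
Ighg2b differed from Ighg2c at 7 of these 90 positions and Ighg1 at 18. Of the 30-base words in the Ighg2c transcript, 12.3% also stood in a transcript of Ighg2b or Ighg3, whereas 0 of the 503 words of Igkc stood in another gene's transcript. How the Ighg genes share their counts is therefore uncertain.

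The injected libraries held 3219899 to 8252237 counts (median 6086567) and the uninjected ones 4751693 to 6215240 (median 6149455). The nuclei were checked against the defining markers of VIP cells, which were present in every library. Vip ranged from 782 to 5962 CPM (counts scaled to a common library size, with TMM factors) with a median of 4148 in injected cortex, and stood at 4560, 6377 and 4635 in uninjected cortex. The 20 VIP neuron markers summed to 17250 to 24950 CPM in injected VIP nuclei, against 353 to 1639 CPM in the libraries of all nuclei, not selected for VIP, from injected cortex. The injected libraries detected 17784 to 20997 genes and the uninjected ones 18636 to 19141. Kir2.1 library 9 and mutant library 1 stood apart from the other injected libraries, with correlations to their group's median profile of 0.851 and 0.894. Xist and Ddx3y went against the labelled sex in 8 of the 19 injected libraries and in 0 of the 3 uninjected ones, which are all labelled male. Of the 8 injected libraries labelled male, Ddx3y was above 0 in 4. Fits of the libraries labelled male therefore mix both states of these genes, and the main fit takes sex as labelled. Kcnj2, the gene for Kir2.1, ran from 1.52 to 34.6 CPM (median 16.5) in injected cortex and stood at 5.58, 0 and 15.3 in uninjected cortex, so the ranges overlapped.

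Igkc and Ighg2c, 2 of 19 measured antibody and plasma cell genes, were higher in VIP nuclei of injected cortex, and 4 other genes passed the threshold. Igkc (ENSMUSG00000076609, chr6:70726435-70726966, plus strand) ran from 8.34 to 533 CPM with a median of 34.4 in the 19 injected libraries, and stood at 0, 0 and 0.822 CPM in the 3 uninjected ones. Every injected library lay above every uninjected library, as they did for 30 of the genes tested (0.141%), and for 32 (0.151%) every injected library lay below. The means were 71.5 ± 117 CPM (SD, n = 19) and 0.274 ± 0.474 CPM (SD, n = 3), and the uninjected libraries together held 5 Igkc counts, all in library 3. The log2 fold change was 8.13 ± 1.29 (SE), with an adjusted p of 0.00143 in edgeR's quasi-likelihood test with Benjamini-Hochberg adjustment over 21207 genes. Without uninjected library 3 the fitted value was 12.02, against a group at 0, which is no size, and the adjusted p was 0.0104. Across these genes, 5 were higher in injected cortex at an adjusted p under 0.05 (0.0236%) and 1 was lower (0.00472%), which makes 6 in either direction (0.0283%). DESeq2 called 115 higher and 6 lower, and with no filter on low counts edgeR called 18 and 108. In simulated data of this design, 43% of 4-fold changes were recovered, so a gene that did not pass is not shown to be unchanged. In the same data 10 unchanged genes were called, so a call can also be false.

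**Figure D1:**
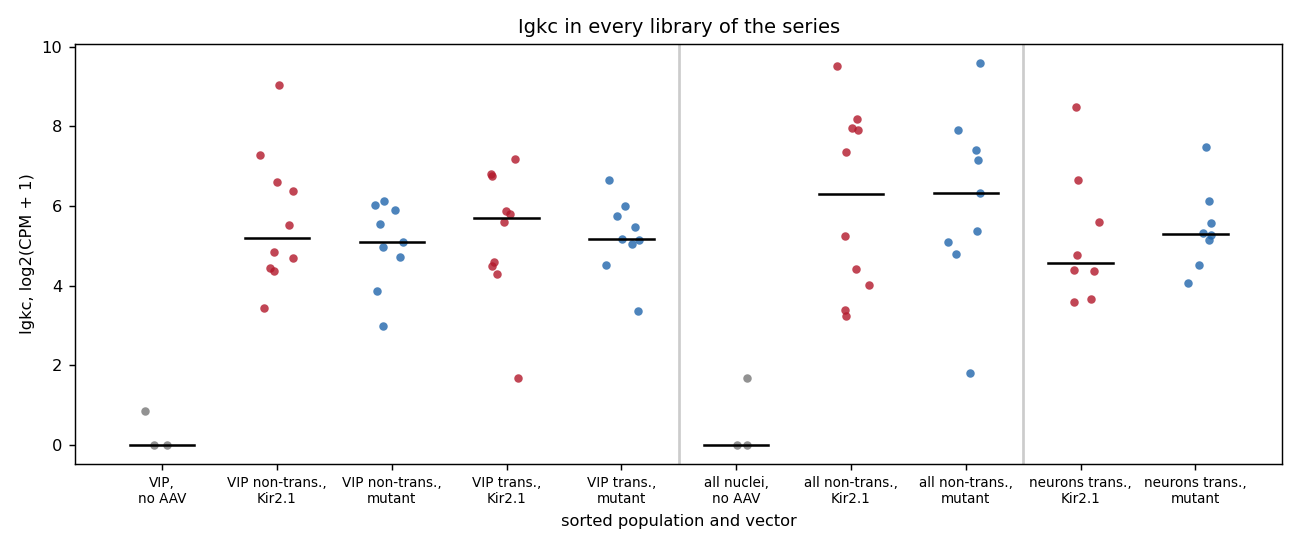
Igkc in every library of the series, as log2(CPM + 1) on the vertical axis, by sorted population and vector on the horizontal axis. Each point is 1 library and each bar a group median. All 6 libraries without AAV lie at the bottom, and the highest of them is at 2.19 CPM in all nuclei.

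Igkc was high with both vectors. It ran from 9.18 to 533 CPM (median 35.9) in the 10 Kir2.1 libraries and from 8.34 to 69.1 CPM (median 34.4) in the 9 mutant libraries. Against the same 3 uninjected libraries, the log2 fold change was 8.69 ± 1.31 (adjusted p = 0.000506) for Kir2.1 and 7.5 ± 1.28 (adjusted p = 0.00768) for the mutant in edgeR's quasi-likelihood test. The difference between the vectors was 1.19 ± 0.50 on the log2 scale, with an adjusted p of 0.486. The highest value came from Kir2.1 library 9, which stands apart, and without both libraries that stand apart Igkc still ran from 9.18 to 148 CPM. In the 8 injected libraries with low Xist, the sex state of the uninjected ones, Igkc ran from 19.6 to 533 CPM, and in the 11 with high Xist from 8.34 to 93.9 CPM. Both ranges lay above the uninjected libraries.

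Gm30211, a long noncoding RNA (chr6:70719074-70740554, plus strand) whose span holds Igkc, was also higher, with 8.72 to 545 CPM in injected cortex and 0, 0 and 1.31 CPM in uninjected cortex. It shares 0 exon bases with Igkc, yet held at least as many counts as Igkc in 79 of 79 libraries, so its reads cannot be separated from those of Igkc. Its log2 fold change was 7.53 ± 1.24 (adjusted p = 0.00168). All 8 of its uninjected counts lay in library 3, and without that library the fitted value was 12.06, again against a group at 0 (adjusted p = 0.0104). Without uninjected library 1 or 2 its adjusted p was 0.0523 or 0.0543, within a range of 4.72e-13 to 0.0543 over 34 alternatives.

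Ighg2c (chr12:113285325-113288932, minus strand), the constant region of an IgG heavy chain, was detected in 18 of 19 injected libraries. It ran from 0 to 98.5 CPM with a median of 27.4, while the uninjected VIP libraries held 0 counts. Cortex without AAV was not free of Ighg2c, since 1 of the 3 all-nuclei libraries held 61 counts (9.77 CPM of total counts). Against a floor of 3 counts over the uninjected VIP group, Ighg2c was at least 179-fold higher in injected VIP nuclei. The adjusted p in edgeR's quasi-likelihood test was 0.0386. The medians were 20.1 CPM for Kir2.1 and 27.4 CPM for the mutant, with wide overlap. The call was lost without mutant library 2 (adjusted p = 0.0572) and without uninjected libraries 1, 2 or 3 (0.107, 0.229 and 0.136). It was also lost with no sex term (0.139), in the libraries labelled male (0.0665) and with robust estimation (0.116). With the library number as a block it was lost as well (0.313), within a range of 7.12e-09 to 0.313 over 34 alternatives.

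The remaining genes past the threshold have no established tie to antibodies. Gm37254 (chr1:187236457-187240357, plus strand), an unconfirmed transcript inside an intron of Gpatch2, ran from 2.30 to 41.9 CPM (median 7.48) in injected cortex, or to 21.7 CPM without the libraries that stand apart, and was at 0 counts in the 3 uninjected libraries. It was at least 56.1-fold higher against the floor of 3 counts, with an adjusted p of 0.0400. Reads from Gpatch2 pre-mRNA cannot be separated from it, since Gpatch2 lies on the same strand. Gpatch2 itself ran from 41 to 112 CPM in injected cortex and stood at 48.6, 39.2 and 61.9 CPM in uninjected cortex (log2 fold change 0.83 ± 0.27, adjusted p = 0.388). The Gm37254 call was lost without Kir2.1 libraries 8 or 10 (adjusted p = 0.0504 and 0.0562), mutant library 2 (0.0647) or uninjected libraries 1, 2 or 3 (0.12, 0.229 and 0.138). It was lost too with no sex term (0.0538), in the libraries labelled male (0.174) and in those whose sex genes fit the label (0.331). With the library number as a block it was also lost (0.0538), within a range of 1.32e-05 to 0.331.

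Ltk (chr2:119751320-119760431, minus strand) encodes a receptor tyrosine kinase related to Alk. It ran from 3.63 to 42.1 CPM with a median of 16.7 in injected cortex and stood at 2.79, 0.492 and 0.822 CPM in uninjected cortex. No injected library fell to the uninjected levels, and the log2 fold change was 3.93 ± 0.81 (adjusted p = 0.0400). Leaving out 1 library ended the call for Kir2.1 libraries 5, 8 and 10 (adjusted p = 0.0516, 0.0504 and 0.0722) and mutant libraries 2, 7 and 8 (0.0722, 0.0517 and 0.0533). It ended the call as well for uninjected libraries 1, 2 and 3 (0.0673, 0.307 and 0.165). With no sex term the adjusted p was 0.124, in the libraries labelled male 0.102 and in those that fit their sex label 0.0819. With the library number as a block it was 0.337, within a range of 4.16e-06 to 0.337.

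Rassf4 (chr6:116633008-116673952, minus strand), of a family of proteins that bind Ras, was the only gene lower in injected cortex at this threshold. It stood at 6.97, 6.73 and 4.44 CPM in the uninjected libraries and ran from 0 to 1.70 CPM in injected ones, with counts in 2 of 19. Both of these were Kir2.1 libraries, and the 9 mutant libraries held none. The groups did not overlap. Mean levels were 6.05 CPM (n = 3, 103 counts) in uninjected and 0.178 CPM (n = 19, 22 counts) in injected cortex, and edgeR's quasi-likelihood test gave an adjusted p of 0.012. The fitted log2 fold change of -8.77 is further from 0 than this ratio of means, averages in a mutant group at 0 counts and moved between -9.71 and -6.01 over the alternatives, so it is not taken as the size. The call remained in 22 of 22 fits that left out 1 library. It was lost with DESeq2 (adjusted p = 0.334), with the 22 libraries fitted alone as 2 groups (0.363) and with no sex term (0.129). It was lost too in the libraries labelled male (0.47), in those that fit their sex label (0.412) and with the library number as a block (0.621). The range was 0.000263 to 0.621.

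**Figure D2:**
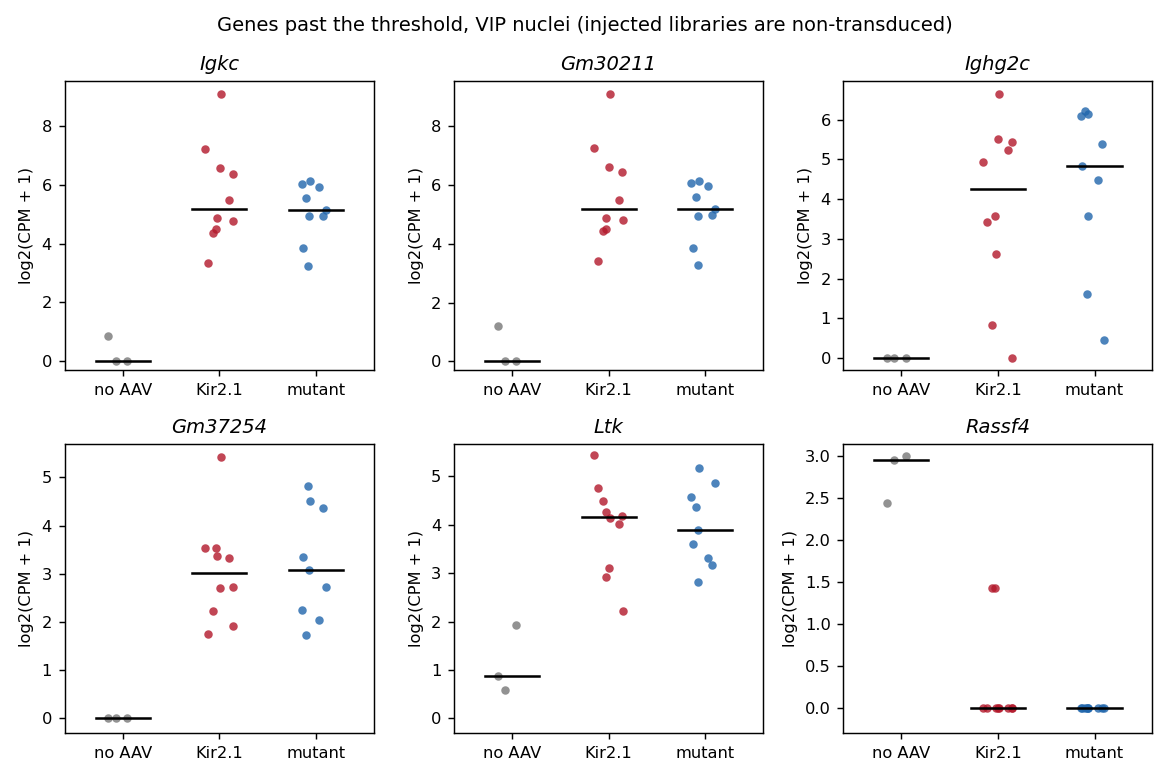
The 6 genes past the threshold in VIP nuclei, as log2(CPM + 1) on the vertical axis, for libraries with no AAV (n = 3), with the Kir2.1 vector (n = 10) and with the mutant vector (n = 9). Points are libraries and bars medians. Igkc, Gm30211, Gm37254 and Ltk show no overlap with the uninjected libraries, 1 Kir2.1 library is at 0 for Ighg2c, and Rassf4 is above 0 in 2 injected libraries.

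Taken by vector, with the same 3 uninjected libraries on the other side, 2 genes were higher in Kir2.1-injected cortex (0.00943%), Igkc and Gm30211, and 0 were lower (0%). At an unadjusted p under 0.05 that comparison held 1644 genes in either direction, and DESeq2 called 94. In mutant-injected cortex 4 genes were higher (0.0189%) and 3 lower (0.0141%), beside 2679 at an unadjusted p under 0.05 and 139 called by DESeq2. These 7 calls became 1, 0 and 2 without uninjected library 1, 2 or 3, and 0 with no sex term. The lower ones were Rassf4, Naa60, an N-terminal acetyltransferase, and 1700037C18Rik, whose exons overlap those of Naa60 on the other strand, so that their reads cannot be told apart. Naa60 ran from 27.5 to 93.3 CPM (median 46.5) over all injected libraries and stood at 108, 125 and 97.3 CPM in uninjected ones, without overlap. Its log2 fold change was -1.41 ± 0.29 (adjusted p = 0.0363) for the mutant, -1.03 ± 0.30 (adjusted p = 0.412) for Kir2.1 and -1.21 ± 0.27 (adjusted p = 0.0812) for both. Between the vectors themselves, 0 genes passed in edgeR's quasi-likelihood test, beside 1881 at an unadjusted p under 0.05 and 29 called by DESeq2.

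Among the other antibody genes, Ighg2b ran from 1.98 to 50.2 CPM (median 10.2) in injected VIP nuclei and had 0 counts in uninjected ones, with an adjusted p of 0.113. Of the 3 all-nuclei libraries without AAV, 1 held Ighg2b, at 3.79 CPM of total counts. Jchain, which joins antibody units into polymers, ran from 0 to 26.7 CPM (median 9.89) against 1.20, 0 and 0 CPM (adjusted p = 0.394). Ighm, the heavy chain of IgM, ran from 0 to 115 CPM (median 17.3) against 3.19, 0 and 15.8 CPM (adjusted p = 0.501), and these ranges overlapped. Igha, another heavy chain gene, was above 0 in 8 of 10 Kir2.1 and 8 of 9 mutant libraries. It reached 83.3 and 13.2 CPM of total counts there, with 0 counts in uninjected VIP nuclei. It passed the threshold in the libraries labelled male but not in the main fit. Of the 25 genes listed for antibodies and plasma cells 19 were measured, and 2 of them rose, Igkc and Ighg2c. At an unadjusted p under 0.05, 10 of the 19 were higher and 1 was lower, beside 6.36% and 3.56% of all genes tested. Of the 19, however, 11 had 0 counts in uninjected libraries and entered the test only through counts in injected cortex. Of all 21207 genes tested, 1725 had 0 counts there, so the shares of all genes are no like background for this list. The list's median log2 fold change was 4.91, or 1.23 with the 11 genes at 0 in uninjected libraries held at their bound, and all genes tested had a median of 0.12. The 8 members with counts in uninjected cortex had a median of 0.22, with 4 of them positive.

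Most of the other defining markers of B cells and plasma cells had a median of 0 in injected libraries, though not all did. Cd79b and Ms4a1, which mark B cells, were at 0 in all 22 libraries. Mzb1, a plasma cell chaperone, was above 0 in 8 of 19 injected libraries, up to 15.8 CPM of total counts, and in 0 uninjected ones. Tnfrsf17 was above 0 in 1 injected library and Prdm1 in 3, none above 1.01 CPM. Sdc1 was above 0 in 12 of 19 injected libraries (up to 13.8 CPM) and in all 3 uninjected ones (up to 6.60 CPM). The list summed to 38.6 to 946 CPM (median 191) in injected and 113 to 148 CPM in uninjected libraries, a sum that also holds Xbp1, which neurons express. Xbp1, a factor of antibody secretion and of the unfolded protein response, was at 11.1 to 101 CPM in injected and at 129, 135 and 86.6 CPM in uninjected libraries. What part other cells or RNA from them had in these counts was not tested, and in bulk nuclei fewer cells of a type and less RNA per cell cannot be told apart.

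None of the T and NK cell genes passed the threshold. Cd3e was above 0 in 1 of 19 injected libraries, Cd8a in 2 and Trac in 5, none above 2.77 CPM of total counts. Of 26 listed T and NK cell genes 8 were measured, with 0 past it in either direction, also at an unadjusted p under 0.05. Their median log2 fold change was 3.48, with 7 positive, beside 56.3% of all genes. With the 3 genes at 0 in uninjected libraries held at their bound it was 1.96. The 5 members with counts in uninjected cortex had a median of 4.01, with 4 of them positive. Ccl5, a chemokine of T cells, ran from 0 to 15.5 CPM (median 1.12) in injected cortex and stood at 0, 0 and 0.49 CPM in uninjected cortex (log2 fold change 4.07 ± 2.28, adjusted p = 0.535). The list summed to 80.7 to 322 CPM in injected and 141 to 217 CPM in uninjected libraries, so the ranges overlapped. Csf1r, the growth factor receptor of microglia, ran from 0.376 to 20.5 CPM (median 7.79) against 3.99, 3.61 and 6.74 CPM, and the 20 microglia and myeloid genes summed to 125 to 338 CPM against 190 to 287 CPM. Of these 20 genes 0 passed. At an unadjusted p under 0.05, 4 were higher and 1 was lower, beside 6.36% and 3.56% of all genes.

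**Figure D3:**
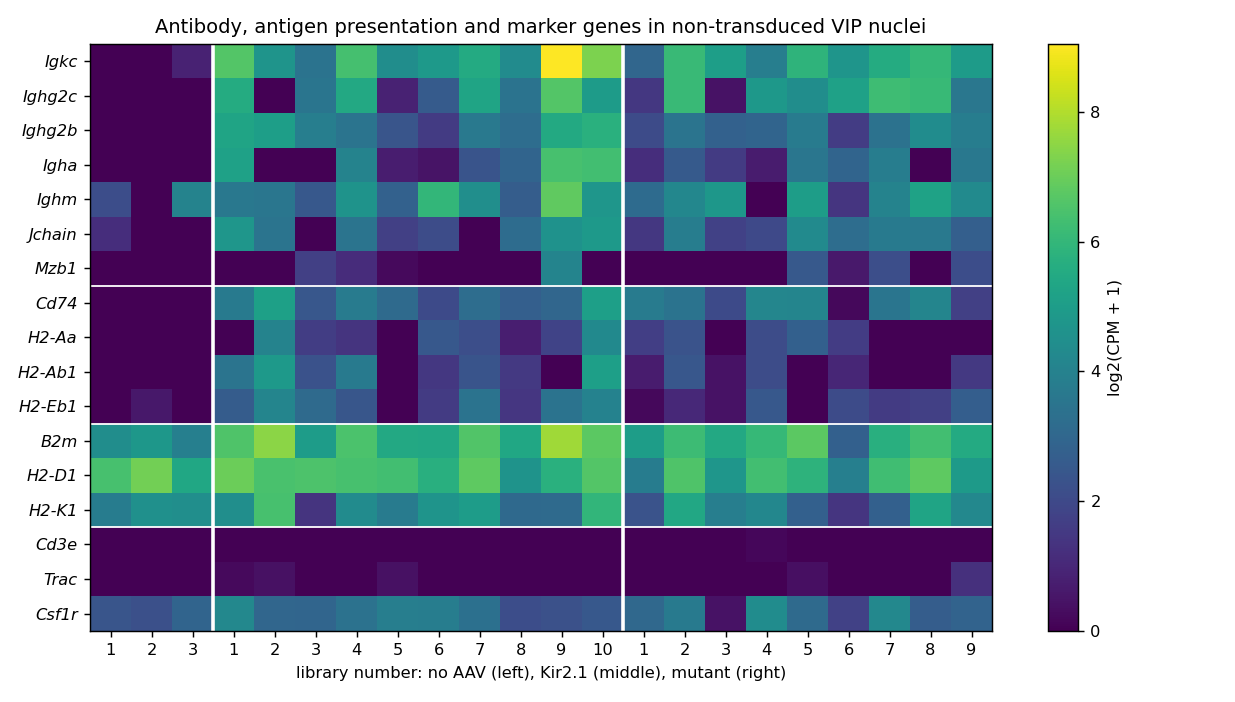
Antibody genes (top), MHC class II, MHC class I and other immune markers (bottom) in the 22 VIP libraries, each column a library by its number. Colour gives log2(CPM + 1), from 0 in dark purple to the highest value in yellow. The columns of libraries without AAV (left) are dark for Igkc, Ighg2c, Ighg2b and Cd74, whereas B2m and H2-D1 are lit in them too.

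Of the MHC class II genes, Cd74 came nearest to the threshold. It was above 0 in all 19 injected libraries, from 0.16 to 36.3 CPM (median 9.87), and at 0 counts in the 3 uninjected ones. This was at least 63.4-fold higher against the floor of 3 counts (adjusted p = 0.0812). DESeq2 put it past the threshold (adjusted p = 2.59e-05), as did the fit of the 22 libraries as 2 groups (0.0198) and that of the libraries labelled male (0.0178), within a range of 2.59e-05 to 0.352 over 34 alternatives. H2-Aa, H2-Ab1 and H2-Eb1, which form class II molecules, had median levels of 2.39, 1.81 and 3.67 CPM in injected cortex, and 1 of the 3 uninjected libraries held any of them, for H2-Eb1 (0.492 CPM). In all, 0 of the 7 class II genes passed. At an unadjusted p under 0.05, 4 were higher, beside 6.36% of all genes, and 6 had a positive log2 fold change, beside 56.3%. Of the 7, 3 had 0 counts in uninjected libraries and entered the test only through counts in injected cortex. With these held at their bound the median log2 fold change was 4.35. The 4 others had a median of 1.06, with 3 of them positive.

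B2m, the invariant partner of MHC class I, ran from 6.86 to 220 CPM with a median of 65.5 in injected cortex and stood at 19.7, 27.1 and 14.1 CPM in uninjected cortex. All but 1 injected library, mutant library 6, exceeded the highest uninjected one. The log2 fold change was 1.98 ± 0.59, but the adjusted p was 0.329 in edgeR's quasi-likelihood test. Patl2 spans B2m on the other strand, and with libraries that do not mark strand their reads cannot be told apart. H2-D1, a class I heavy chain, did not share this pattern of levels, with 15.4 to 123 CPM (median 74.9) in injected and 79.5, 140 and 41.9 CPM in uninjected libraries. Its log2 fold change was -0.21 ± 0.46 (adjusted p = 0.929) and ran from -0.55 to 0.30 when each library was left out in turn, so that it has no settled sign. Of 22 class I and antigen presentation genes 0 passed, 9 had a positive log2 fold change, and the median was -0.25.

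Of the 39 measured interferon-stimulated genes, 0 passed the threshold. At an unadjusted p under 0.05, 4 were higher and 0 lower, beside 6.36% and 3.56% of all genes. The 2 with the smallest p, Irgm2 and Igtp, which encode interferon-inducible GTPases, had medians of 2.498 and 1.10 CPM in injected cortex and were at 0 in the uninjected libraries (adjusted p = 0.342 and 0.418). They overlap on the same strand and share 162 exon bases, and their counts were equal in 14 of the 19 injected libraries, so their reads cannot be separated and they are not 2 separate measurements. The median log2 fold change of the list was 0.92, or 0.86 with the 15 genes at 0 in uninjected cortex held at their bound. The 24 members with counts in uninjected cortex had a median of 0.00, and 12 of them were positive. The list summed to 60.7 to 274 CPM (median 96.2) in injected and 67.8 to 121 CPM in uninjected libraries.

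The VIP neurons' own genes showed no member past the threshold in any list. Crh, a stress peptide of VIP cells, ran from 13.9 to 266 CPM (median 59.4) in injected cortex and stood at 166, 279 and 80.8 CPM in uninjected cortex, with a log2 fold change of -1.89 ± 0.47 (adjusted p = 0.176). Of 20 VIP neuron markers 5 were lower and 0 higher at an unadjusted p under 0.05, beside 3.56% and 6.36% of all genes. Their median log2 fold change was -0.47, against 0.12 over all genes. Among 23 neuropeptide and secretory granule genes 5 were lower and 0 higher at that unadjusted p, beside the same shares of all genes. Cpe, a peptide-processing enzyme, had a log2 fold change of -0.79 ± 0.24 (adjusted p = 0.333).

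No gene of protein folding passed the threshold. Of 26 measured entries for the unfolded protein response and heat shock, 10 were lower and 0 higher at an unadjusted p under 0.05, beside 3.56% and 6.36% of all genes, and the median log2 fold change was -0.69. The list summed to 457 to 2385 CPM (median 1709) in injected libraries, all below the 2392 to 3158 CPM of the uninjected ones. Creld2, an endoplasmic reticulum stress protein, ran from 4.17 to 33.9 CPM (median 17.4) against 64.4, 33.5 and 30.2 CPM (adjusted p = 0.388). Hspa5, the main chaperone of the endoplasmic reticulum, ran from 13.8 to 258 CPM (median 180.3) against 282, 359 and 361 CPM (adjusted p = 0.469), and these groups did not overlap.

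No channel or receptor gene passed. Of all genes tested, 11934 of 21207 (56.3%) had a positive log2 fold change. Of 39 potassium channel genes 6 were higher and 0 lower at an unadjusted p under 0.05, beside 6.36% and 3.56% of all genes, and 30 had a positive log2 fold change, with a median of 0.34 against 0.12 over all genes. Kcnb2, a delayed rectifier channel, ran from 843 to 2400 CPM (median 1506) against 760, 1005 and 1145 CPM (adjusted p = 0.441). Of 30 glutamate receptor and excitatory synapse genes 26 had a positive log2 fold change, with a median of 0.31. The immediate early gene Fos ran from 0 to 29.4 CPM (median 7.95) in injected cortex and had 0 counts in uninjected cortex, with an adjusted p of 0.280, whereas the 19 measured genes of that class had a median log2 fold change of 0.07.

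Genes of basic cell functions and of other cell types also had 0 members past the threshold. The 41 cytosolic ribosomal protein genes had a median log2 fold change of -0.34, with 7 positive, against 0.12 and 56.3% over all genes. By vector the median was 0.000522 for Kir2.1 and -0.675 for the mutant. The 32 nuclear genes of oxidative phosphorylation had a median of -0.20, with 0.0384 for Kir2.1 and -0.522 for the mutant. At an unadjusted p under 0.05, 3 of these were lower and 0 higher, beside 3.56% and 6.36% of all genes. The 7 measured mitochondrially encoded genes were all positive, with a median of 0.46. Markers of excitatory neurons, the main neighbours of VIP cells, summed to 1007 to 1587 CPM in injected and 1271 to 1644 CPM in uninjected VIP nuclei. Astrocyte markers summed to 408 to 842 CPM against 367 to 571 CPM, oligodendrocyte markers to 108 to 553 CPM against 295 to 672 CPM, and vascular markers to 6.24 to 251 CPM against 17.6 to 26.9 CPM. For each of these cell types the ranges overlapped.

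Igkc was not limited to the non-transduced VIP nuclei of injected cortex. As CPM of total counts, transduced VIP nuclei had medians of 51.0 (Kir2.1, n = 10) and 35.1 (mutant, n = 9), and all nuclei of injected cortex had medians of 99.2 and 79.6. The 3 libraries of all nuclei without AAV held 2.19, 0 and 0 CPM. Libraries that share a vector and a number shared their sex state in 19 of 19 cases between non-transduced and transduced VIP nuclei, and in 19 of 19 between VIP and all nuclei. Across these libraries, Igkc in non-transduced VIP nuclei, as log2(CPM + 1), followed Igkc in the library of the same number from transduced VIP nuclei. Pearson's r was 0.8315 (n = 19, permutation p = 1e-05, the smallest that the permutations can give, adjusted p = 3e-05 over 3 relations) and Spearman's rho 0.8702 (permutation p = 1e-05).

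The same held for all nuclei, with r = 0.7862 (n = 19, permutation p = 4e-05, adjusted 6e-05) and rho = 0.8404 (permutation p = 3e-05). Against transduced neurons, r was 0.7194 (n = 16, permutation p = 0.00204, adjusted 0.00204) and rho 0.75 (permutation p = 0.0012). Without the 2 libraries farthest from the median, r was 0.8241, 0.8474 and 0.6485 in that order. Within the Kir2.1 vector r was 0.861, 0.8084 and 0.7966, and within the mutant vector 0.8111, 0.864 and 0.5919. These tests were two-sided and used 100000 permutations.

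**Figure D4:**
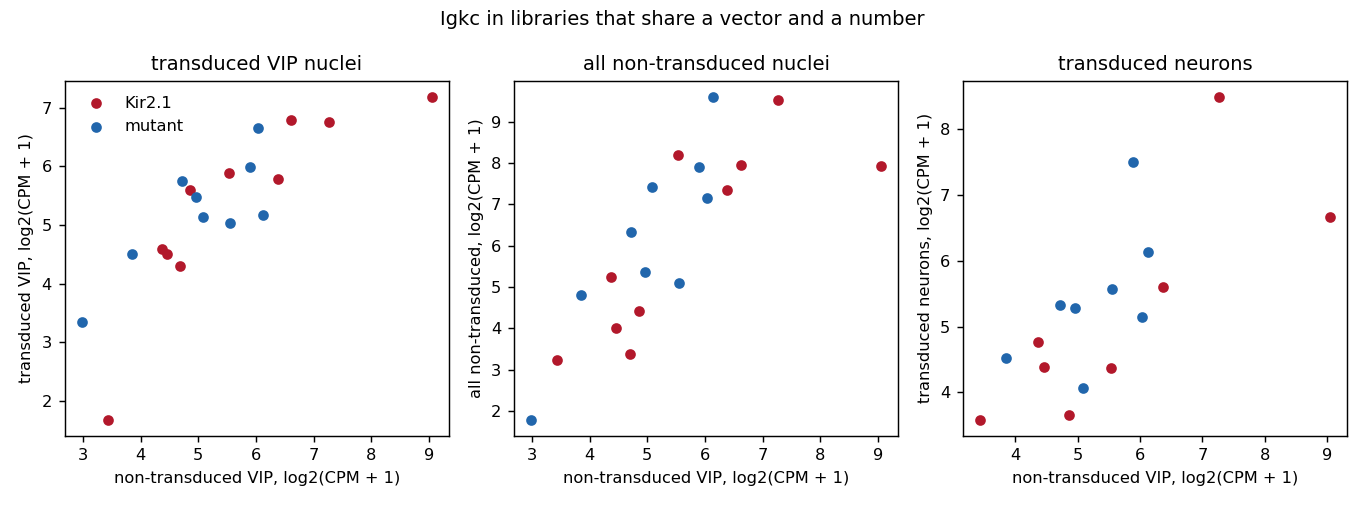
Igkc as log2(CPM + 1) in non-transduced VIP nuclei (horizontal axis) against transduced VIP nuclei, all nuclei and transduced neurons (vertical axes) of the same vector and number. Each point is 1 pair of libraries, coloured by vector, and high libraries tend to be high in both, with r of 0.8315, 0.7862 and 0.7194.

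Whether the response of VIP nuclei differed from that of all nuclei was tested in 1 fit of 44 non-transduced libraries, treated as independent although VIP and all-nuclei libraries of the same number share their sex state and follow each other in Igkc. All nuclei had 28 genes past the threshold between injected and uninjected cortex (0.123%), and the difference between the responses passed for 3 of 22855 genes (0.0131%). For Igkc the log2 fold change was 8.37 ± 1.73 in VIP and 8.59 ± 1.64 in all nuclei, and their difference of -0.23 ± 3.27 was not called (adjusted p = 1). DESeq2 called 91 differences.

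H2-D1 was 1 of the 3. As CPM of total counts, all nuclei ran from 58.2 to 437 in injected cortex and stood at 24.6, 60.7 and 20.01 without AAV. In VIP nuclei the injected range of 12.8 to 127 held 2 of the 3 uninjected values, and the third, 138, lay above it. The log2 fold change was -0.29 ± 0.43 in VIP and 2.97 ± 0.54 in all nuclei, a difference of -3.26 ± 0.63 (adjusted p = 0.0318 in edgeR's quasi-likelihood test). The call was lost without uninjected VIP library 2 (adjusted p = 0.267), without uninjected all-nuclei library 1 or 3 (0.339 and 0.301), in the libraries labelled male (0.248) and with robust estimation (0.103). H2-K1, a second class I heavy chain, had a difference of -4.71 ± 1.02 (adjusted p = 0.110). B2m rose in all nuclei by 3.23 ± 0.61 (adjusted p = 0.00836) and had 2.00 ± 0.56 in VIP nuclei (adjusted p = 0.176), and the difference of -1.23 ± 0.67 was not called (adjusted p = 0.841). Class I genes resemble each other, so their shares of the counts are uncertain.

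The promoters of H2-D1 and of its partner B2m are shown because H2-D1 was among the called differences. They are RefSeq windows on GRCm38.p6, from 250 bases before to 50 after the start, at chr17:35262844-35263143 (H2-D1, plus strand) and chr2:122147437-122147736 (B2m, plus strand). Capitals mark matches, on either strand, to a kappa B sequence, GGGATTCCC, and to an interferon element in its spellings GAANNGAAA and GAAANNGAA.
H2-D1: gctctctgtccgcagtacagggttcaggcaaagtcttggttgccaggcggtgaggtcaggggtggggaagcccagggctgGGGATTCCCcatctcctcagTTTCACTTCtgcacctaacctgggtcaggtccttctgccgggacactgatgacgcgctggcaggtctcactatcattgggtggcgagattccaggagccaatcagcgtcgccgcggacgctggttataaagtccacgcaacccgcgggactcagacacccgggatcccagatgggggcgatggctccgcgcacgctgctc
B2m: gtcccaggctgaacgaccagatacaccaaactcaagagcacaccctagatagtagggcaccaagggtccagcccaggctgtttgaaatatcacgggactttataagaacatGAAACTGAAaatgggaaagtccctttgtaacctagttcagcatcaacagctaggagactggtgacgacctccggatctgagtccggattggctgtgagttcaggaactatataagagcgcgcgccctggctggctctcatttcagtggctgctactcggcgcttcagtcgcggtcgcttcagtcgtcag
GGGATTCCC (in H2-D1) stood in 0.353% of 32851 promoter windows, GAANNGAAA (in H2-D1, on the minus strand) in 7.52% and GAAANNGAA (in B2m) in 8.56%, the last 2 of which can overlap. These matches describe the letters only.

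Gm37254 differed the other way. All nuclei without AAV held 6.40, 6.25 and 11.9 CPM of it, within the 2.27 to 16.5 CPM of injected cortex, whereas VIP nuclei held 0 counts without AAV. It was at least 56.1-fold higher in injected than in uninjected VIP nuclei, as given above, and had a log2 fold change of 0.32 ± 0.72 in all nuclei. The difference passed with an adjusted p of 0.00894, and no size is given for it because of the group at 0. It was lost without uninjected VIP library 2 or 3 (adjusted p = 0.0876 and 0.0658) and in the libraries labelled male (0.0857). Gm38413, a long noncoding RNA (chr5:99730854-99753973, minus strand), was at 0 in all 19 injected VIP libraries and at 0, 4.07 and 0 CPM in uninjected ones, so all of its VIP counts come from uninjected library 2. Its difference had an adjusted p of 0.00917, which became 1 without that library, 0.585 in the libraries labelled male and 0.168 in those that fit their sex label. Rassf4 and Ltk, called in VIP nuclei, had adjusted p of 0.205 and 0.615 for the difference and were not called. The number of genes with a called difference was 0 without uninjected VIP library 2, 5 without uninjected VIP library 1 or without all-nuclei library 2, and 0 in the libraries labelled male.

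**Figure D5:**
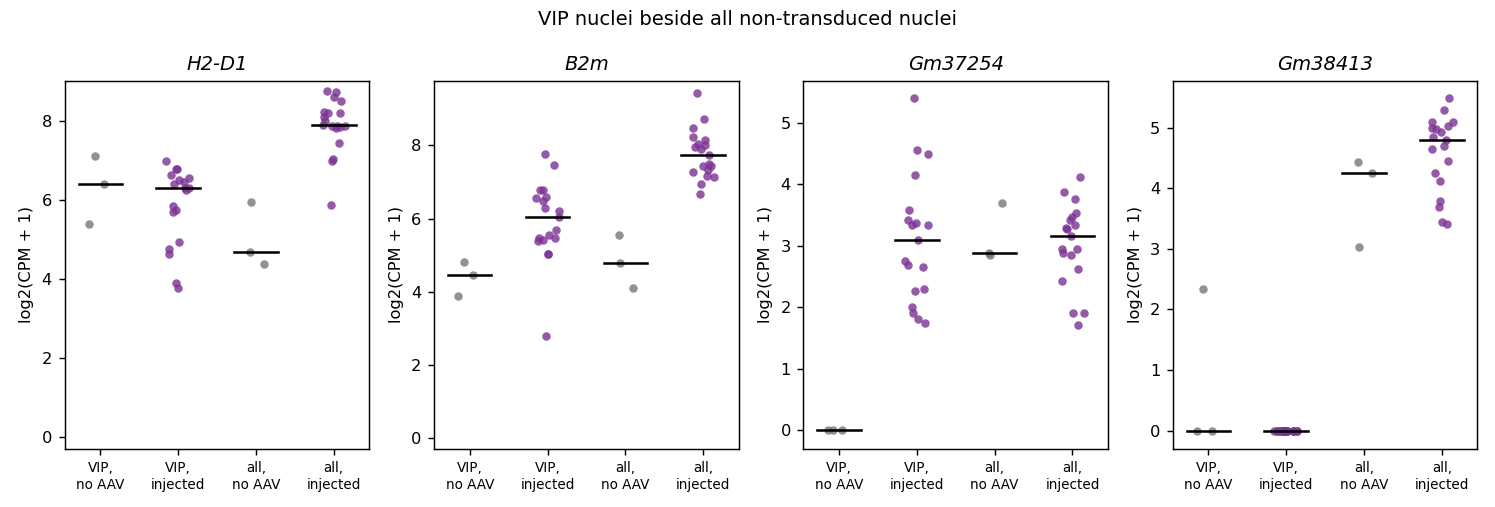
H2-D1, B2m, Gm37254 and Gm38413 as log2(CPM + 1) on the vertical axis, in VIP nuclei and in all non-transduced nuclei without AAV (n = 3 each) and of injected cortex (n = 19 each). Points are libraries and bars medians. H2-D1 in injected cortex lies mostly above the uninjected libraries for all nuclei and within their range or below it for VIP nuclei.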

How the data were processed

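RNA was measured in small pools of sorted nuclei. The authors deposited 1 table of read counts, raw and not normalized as its whole numbers show, with 55335 genes and 79 libraries. The submitters' processing notes name the mm10 build and list, without their roles, HOMER 4.9.1, STAR 2.5.3a and cutadapt 1.18. Which annotation was used and how reads were counted is not given in the sources used here, and the kit does not mark strand. Gene names came from GENCODE vM21 (55154 matched, 181 not, with 0.0264% of counts).

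Groups were taken from the labels. The counts were tested with edgeR 4.0.16 (R 4.3.3, limma 3.58.1): filterByExpr (minimum count 10, minimum total 15), TMM scaling, a quasi-likelihood F test and Benjamini-Hochberg adjustment over all genes, with 0.05 as the threshold. One fit held all 41 VIP libraries, with 5 group means and the labelled sex, and the injected mean weighted the vectors by their libraries. It treated the libraries as independent. Non-transduced and transduced VIP libraries of the same vector and number shared their sex state, however, and followed each other in Igkc. The alternative fit of the 22 libraries as 2 groups left the transduced ones out (adjusted p for Igkc 0.00257 in edgeR's quasi-likelihood test). A second fit held the 44 non-transduced libraries. Standard errors are the fold change over the root of F. CPM are scaled by TMM unless given per total counts. Floors of 3 counts cover counting error only, since PCR reads carry no molecular identifiers. Relations across libraries used permutation tests.

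In simulated data for the pooled VIP comparison (20272 genes), 43% of 4-fold and 69% of 16-fold changes were recovered. For the difference between populations (21839 genes) these were 25% and 45%.

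The alternatives were DESeq2 1.42.0, RLE scaling, other filters, robust estimation, other sets of libraries, other sex terms, replicate blocks and leaving out libraries: each of the 22 in turn for the pooled comparison, each of the 3 uninjected ones for each vector, and each of the 6 uninjected ones for the difference between populations. The fits without libraries that stand apart, of libraries whose Xist and Ddx3y fit the label, and with vector and number together as a replicate block, were chosen after seeing the data. Named genes were those past the threshold (up to 12 each way), the called members of each list or else its 2 with the smallest p, and a fixed set of checks. Others, such as Naa60, 1700037C18Rik, Gpatch2, Ighg2b, Jchain, Ighm, Igha, Sdc1, H2-Ab1, H2-Eb1, H2-K1, Hspa5 and Gm38413, were named after their values were seen. The members and lists were chosen with earlier results of these data known. Spike-in RNA was not analysed here.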

Additional observations from a re-analysis of the deposited data

Results flagged for a closer look

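In 148 groups of 9 or 10 libraries examined for named genes, 19 had a library whose gap to the rest passed the 95% critical value, where chance gives about 1 in 20 groups. Kir2.1 library 9, which stands apart, accounted for 5 of the 19. It was the highest of its group for Gm37254 (41.9 CPM), Grin2b (3226 CPM) and mt-Nd2 (406.5 CPM), and the lowest for Kcnj2 (1.52 CPM) and Vip (1688 CPM). Mutant library 1, which also stands apart, accounted for 4, with the highest Ccl5 (15.5 CPM) and the lowest Creld2 (4.17 CPM), Xbp1 (12.9 CPM) and Gad1 (204 CPM).

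The others were spread over libraries. Ms4a7 was high in Kir2.1 library 8 (11.2 CPM) and mutant library 2 (3.12 CPM), Unc93b1 in Kir2.1 library 4 (1.72 CPM) and mutant library 8 (7.535 CPM), and Enpp6 in Kir2.1 library 7 (7.81 CPM) and mutant library 9 (4.08 CPM). Fcrls was high in Kir2.1 library 2 (3.63 CPM) and Kcnj10 in Kir2.1 library 10 (23.3 CPM). B2m was low in mutant library 6 (6.86 CPM) and mt-Nd6 in mutant library 4 (21.2 CPM).

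The response to injection differed between VIP and all nuclei, by the test of the difference, for Gm37254 (adjusted p = 0.00894), Gm38413 (adjusted p = 0.00917) and H2-D1 (-3.26 on the log2 scale, adjusted p = 0.0318). The first 2 have a VIP group at 0 counts and no size is given for them. Without uninjected VIP library 2 none of the 3 passed. Transduced neurons, outside the comparisons above, held Igkc in every library, with a lowest value of 11.02 CPM of total counts for Kir2.1 and 15.8 for the mutant, above the libraries without AAV.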

How the results depend on the processing

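Igkc stayed past the threshold in 34 of 34 alternatives, with adjusted p from 1.33e-13 to 0.0423 in edgeR or DESeq2 and log2 fold changes from 7.48 to 12.02. The pooled counts of 5 genes higher and 1 lower, with 2 for Kir2.1, 7 for the mutant, 0 between vectors and 3 for the difference between populations, moved with the setting. With no filter on low counts they were 18, 108, 46, 92, 4 and 11, and with DESeq2 115, 6, 94, 139, 29 and 91. The 22 libraries alone as 2 groups gave 7 higher and 0 lower, and leaving out the sex term gave 2, 0 and, for the mutant, 0. Libraries labelled male gave 5 higher and 0 lower, 7 for Kir2.1, 3 for the mutant and 0 for the difference. Those that fit their sex label gave 4, 0, 7 and 3, and without libraries that stand apart 7 were higher and 4 lower. Leaving out each of the 22 libraries gave 2 to 5 higher and 1 to 3 lower. Leaving out each of the 3 uninjected VIP libraries gave 2 to 3 for Kir2.1 and 0 to 2 for the mutant, and each of the 6 uninjected libraries of both populations 0 to 5 for the difference. The cause was not tested. Of 2487 values of named genes under alternatives, 2432 kept their side of the threshold. Among these 2432 were 10 that changed sign, with neither fit past the threshold. The others passed only in the alternative (16) or only in the main fit (39). With 3 uninjected libraries, a gene at 0 there has a bound and no fold.

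Same-numbered injected and uninjected libraries did not deviate together (correlations from -0.0993 to 0.0464, 0 of 6 over 0.1). Uninjected VIP and uninjected all-nuclei libraries of the same number correlated by only 0.0109 to 0.0491. Low correlations of this kind therefore cannot decide whether the numbers pair libraries. The fit with the number as a replicate block, without the sex term where both could not be estimated, gave 4 higher and 2 lower, 23 for Kir2.1, 273 for the mutant, 0 between vectors and 4 for the difference. VIP and all-nuclei libraries of the same group and number correlated by -0.0114 to 0.379, with 4 of 22 over 0.1. The best-correlated all-nuclei library bore the VIP library's own number in 6 of 10 Kir2.1, 5 of 9 mutant and 2 of 3 uninjected cases. Between VIP groups this was so in 0 of 3 (uninjected and Kir2.1), 1 of 3 (uninjected and mutant) and 3 of 9 (Kir2.1 and mutant). A replicate block of vector and number together gave 3 differences, of which H2-D1 (adjusted p = 0.00024) was one of those reported, while Gm37254 (0.0559) and Gm38413 (1) did not pass.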
